A study of Mus musculus with 10 samples.

Results

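Complexes II to V of the mitochondrial respiratory chain are built from proteins of the nuclear genome and, in complexes III, IV and V, of the mitochondrial genome. The nuclear-encoded genes were taken as the protein-coding genes with the exact symbols Sdha, Sdhb, Sdhc or Sdhd (complex II), Cyc1 (complex III) or Cycs (cytochrome c). Added to these were the protein-coding genes with symbols that begin Uqcr (complex III), Cox4 to Cox8 followed by a letter (complex IV) or Atp5 (complex V). This gave 49 of the 41388 genes counted, of which 4 belong to complex II, 9 to complex III, 1 to cytochrome c, 18 to complex IV and 17 to complex V. The symbols of the files' annotation also take in Cox7a2l, a supercomplex assembly factor, and Atp5s, the coupling factor B that is no core subunit, while subunits named otherwise in that annotation were not taken.

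RNA was measured in mouse liver, with 1 library per animal. The 2 WT Refed mice had food withheld for 22 h and returned for 2 h. The 3 WT Fasting mice and the 5 NAMPT LKO Fasting mice were fasted for 24 h, although the study's text describes a shorter fast and a randomly fed group. All were C57B/6J mice of 12 weeks. WT mice are Nampt fl/fl littermates without Cre, whose Nampt gene is flanked by recombination sites but intact, and NAMPT LKO mice also carry Albumin-cre, which deletes Nampt in hepatocytes and leaves it in the other cells of the liver. NAMPT makes the NAD precursor nicotinamide mononucleotide from nicotinamide. The libraries held 42170825 to 43218540 counts in WT Refed, 33947232 to 43434139 in WT Fasting and 30603080 to 41160486 in NAMPT LKO Fasting.

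Complex II, succinate dehydrogenase, oxidizes succinate and hands its electrons to ubiquinone. Complex III passes electrons from ubiquinol to cytochrome c, complex IV passes them from cytochrome c to oxygen, and complexes III and IV pump protons out of the matrix while they do so. Complex V, the ATP synthase, lets the protons back in and makes ATP. Several complex IV subunits exist as tissue-restricted pairs of genes, with one form used in liver and most tissues and another in heart and skeletal muscle, lung or testis.

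Nampt was checked first, because it reports on the labels. Nampt stood at 78.0 and 67.8 CPM (the read count of a gene over the total of its library, here scaled by edgeR's TMM factors) in WT Refed, at 63.0, 73.4 and 141 CPM in WT Fasting, and at 12.1, 14.04, 11.8, 12.5 and 15.3 CPM in NAMPT LKO Fasting. Every knockout library lay below every WT library. The log2 fold change between NAMPT LKO Fasting and WT Fasting was -2.81 ± 0.22 (SE, n = 5 and 3, edgeR quasi-likelihood test, adjusted p = 0.00102). The hepatocyte marker list (7 of 8 genes in the files) summed to 72114 to 118155 CPM over the 10 libraries, with none of its genes at 0.

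Of the 49 genes, 44 passed the filter of more than 1 CPM in at least 1 library. The other 5 were Cox4i2, Cox6a2, Cox7b2, Cox8b and Cox8c, all complex IV forms of other tissues. By RPKM, which also divides by exonic length and so allows genes to be compared, the members that passed had a median percentile of 96.8 among the 13444 genes tested. In complex II, Sdhd, a membrane anchor, was highest at a mean of 102 RPKM and Sdhc, the other anchor, lowest at 40.4 RPKM. Sdha and Sdhb, the flavoprotein and iron-sulfur subunits, stood at 89.8 and 102 RPKM. In complex III, Uqcr11 led with 226 RPKM and the core protein gene Uqcrc2 was lowest with 67.7 RPKM. Cyc1, which encodes cytochrome c1, stood at 149 RPKM. Cycs, the mobile electron carrier cytochrome c, was at 30.1 RPKM, under every nuclear subunit of complexes II and III.

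Complex IV spanned the widest range, from Cox6a1 at 426 RPKM to Cox6b2 at 1.24 RPKM among the 13 genes that passed. In complex V, Atp5a1, the alpha subunit of the catalytic head, was highest at 280 RPKM, followed by the beta subunit gene Atp5b at 235 RPKM. Atp5s was lowest at 3.96 RPKM. The 3 Atp5g genes encode the same mature c subunit of the rotor with different import sequences. The plot of levels by complex gives each gene in each group.

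**Figure D1:**
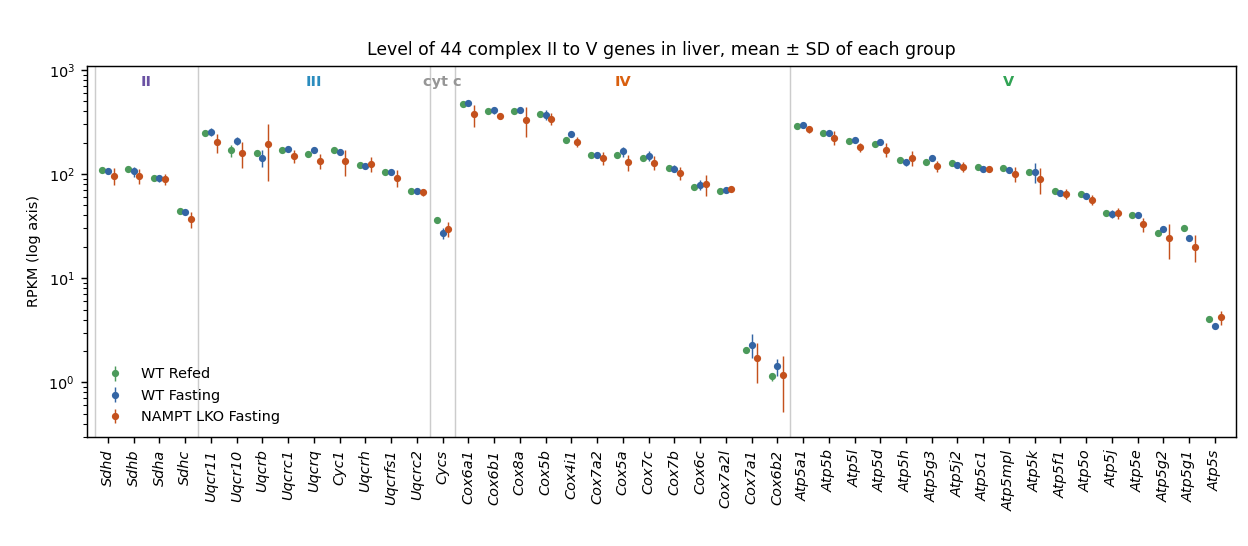
Mean ± SD of the deposited RPKM values (log axis) of the 44 members that passed the filter, in WT Refed (n = 2), WT Fasting (n = 3) and NAMPT LKO Fasting (n = 5), ordered within each complex by level. Cox7a1, Cox6b2 and Atp5s lie far below the other genes.

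Promoter windows from RefSeq (GRCm38.p6, 250 bases before to 50 after the start) were matched by symbol for 35 of 49 members. NRF1, GABPA and the ERR receptors are known activators of nuclear respiratory chain genes. The windows of 4 members with an unadjusted p under 0.05 between NAMPT LKO Fasting and WT Fasting, and of Atp5g1, are shown because the results turn on these genes. Capitals mark GCGCATGCG (NRF1), CCGGAAG (GABPA and other ETS factors), AAGGTCA (ERR and other nuclear receptors) or AAGATGGCG (YY1), searched on both strands; a full NRF1 palindrome gives overlapping matches. They lie on chromosomes 10, 2, 9, 5 and 11, as chr10:80406772-80407071 (minus strand), chr2:174464052-174464351 (minus), chr9:57520982-57521281 (plus), chr5:115348909-115349208 (minus) and chr11:96075582-96075881 (minus), in the order given.
Uqcr11: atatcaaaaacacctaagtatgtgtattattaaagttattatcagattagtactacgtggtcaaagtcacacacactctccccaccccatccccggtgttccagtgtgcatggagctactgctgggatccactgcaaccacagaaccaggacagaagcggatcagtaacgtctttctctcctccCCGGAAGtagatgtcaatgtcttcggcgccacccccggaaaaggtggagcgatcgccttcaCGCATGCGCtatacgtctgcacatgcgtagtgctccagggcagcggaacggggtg
Atp5e: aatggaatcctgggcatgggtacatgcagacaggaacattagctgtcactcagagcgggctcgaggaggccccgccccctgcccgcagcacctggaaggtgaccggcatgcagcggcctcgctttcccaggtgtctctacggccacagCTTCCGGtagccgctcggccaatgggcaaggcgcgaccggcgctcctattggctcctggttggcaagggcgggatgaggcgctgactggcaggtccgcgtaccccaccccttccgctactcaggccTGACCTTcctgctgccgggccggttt
Cox5a: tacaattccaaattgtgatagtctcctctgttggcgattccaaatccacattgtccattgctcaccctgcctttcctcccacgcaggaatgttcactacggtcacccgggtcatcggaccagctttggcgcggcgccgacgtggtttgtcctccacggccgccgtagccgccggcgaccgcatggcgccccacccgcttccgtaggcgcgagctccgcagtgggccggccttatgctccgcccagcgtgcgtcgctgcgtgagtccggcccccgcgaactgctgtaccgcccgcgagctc
Cox6a1: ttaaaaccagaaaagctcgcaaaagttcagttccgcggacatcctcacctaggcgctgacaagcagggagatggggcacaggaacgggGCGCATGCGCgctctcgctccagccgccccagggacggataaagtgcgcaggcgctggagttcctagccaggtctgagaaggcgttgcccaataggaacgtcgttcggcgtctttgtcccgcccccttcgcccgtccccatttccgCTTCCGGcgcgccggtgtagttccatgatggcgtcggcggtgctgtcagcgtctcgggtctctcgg
Atp5g1: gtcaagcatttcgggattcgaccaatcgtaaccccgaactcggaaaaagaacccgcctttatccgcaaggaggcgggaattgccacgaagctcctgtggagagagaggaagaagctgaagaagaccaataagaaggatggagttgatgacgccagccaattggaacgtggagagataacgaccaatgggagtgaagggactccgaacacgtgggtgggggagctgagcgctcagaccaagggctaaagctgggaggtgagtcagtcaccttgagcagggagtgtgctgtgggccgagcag

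Uqcr11 and Cox6a1 held the NRF1 and GABPA letters, Atp5e the GABPA and ERR letters, and the windows of Cox5a and Atp5g1 none of the 4 motifs. Over the 33 tested members with a window, 7 (21.2%) held the NRF1 letters, against 3.74% of 9541 tested genes with a window and 2.54% of all 16295 windows. The GABPA letters were in 11 (33.3%), against 18.3% and 12.4%, the ERR letters in 5 (15.2%), against 3.32% and 3.92%, and the YY1 letters in 1 (3.03%), against 3.29% and 2.04%. A match describes the letters and not a bound site.

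The liver forms of the paired complex IV genes made up nearly all of their families in all 10 libraries. Cox4i1 made 99.9% to 100% of the summed RPKM of Cox4i1 and Cox4i2, the latter a form of lung. Cox6a1 made at least 99.9% of its pair with the heart and muscle form Cox6a2, and Cox8a at least 99.8% with Cox8b and Cox8c. Cox6b1 made 99.3% to 99.9% with the testis form Cox6b2. The heart and muscle form Cox7a1 made 0.281% to 1.25% of its family, while Cox7a2 made 60.5% to 70.3% and Cox7a2l 28.9% to 39.2%. Cox7b2 and Cox8c had 0 counts of 385253801 over all libraries, which allows up to 0.00779 CPM each (3 counts over the whole series, counting error only). Cox4i2, Cox6a2 and Cox8b had 20, 27 and 21 counts in all.

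Among the c subunit genes, Atp5g3 held 67.8% to 73.5% of the summed RPKM in the 9 libraries other than NAMPT LKO Fasting 5, in which it held 85.4%. Atp5g1 held 15.9% ± 0.64 (SD, n = 2) in WT Refed, 12.5% ± 0.66 (n = 3) in WT Fasting and 12.1% ± 2.51 (n = 5) in NAMPT LKO Fasting. Both WT Refed libraries lay above every fasted library in this share. Of the 50-base stretches of annotated Atp5g2 and Atp5g1 transcripts, 38.3% and 11.1% also occur in transcripts of other genes, chiefly Gm10175 and the pseudogene Gm10039, so their counts are uncertain.

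Most members differed little between the animals other than that of NAMPT LKO Fasting 5. Over the 9 libraries other than NAMPT LKO Fasting 5, the 41 members above 10 CPM had a ratio of highest to lowest library with a median of 1.36 (range 1.11 to 2.05). With that library the median ratio was 1.56, and the ratio was 3.95 for Uqcrb and 2.91 for Atp5g2. NAMPT LKO Fasting 5 stood apart from the other knockout libraries. Uqcrb, the complex III subunit that binds ubiquinone, stood at 111, 141, 110 and 152 CPM in knockout libraries 1 to 4 and at 402 CPM in library 5. Of its 50-base stretches 25.5% also occur in transcripts of other genes, chiefly the pseudogene Gm16089. Atp5g2 went the other way, with 51.7, 43.5, 44.1 and 47.1 CPM in libraries 1 to 4 and 17.9 CPM in library 5. Relative to the mean of the other 4, 7 of 44 members were over 1.5-fold higher and 6 over 1.5-fold lower in library 5, or 29.5%, against 26.2% of all tested genes.

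The members over 1.5-fold higher in NAMPT LKO Fasting 5 were Uqcrb, Atp5k, Cox6c, Uqcrh, Atp5h, Cox7a2 and Atp5s, and those over 1.5-fold lower were Atp5g2, Cox8a, Atp5g1, Cyc1, Cox6b2 and Cox6a1. The log2 ratio had a Pearson correlation of -0.54 and a Spearman correlation of -0.46 with the GC content of the longest transcript over 44 members, all from the same library, and -0.53 and -0.56 over all tested genes. In the knockout libraries 1 to 4, each against the other 4 knockout libraries, the Pearson correlation over the members was 0.30 to 0.51. Library 5 is part of each of these references, so these values cannot show a trend of libraries 1 to 4 by themselves. The part of base composition in the group differences below was not tested beyond the fit with the GC trend removed. Estimates of named members that moved by over 1.5 times when this library was left out are given below both ways.

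**Figure D2:**
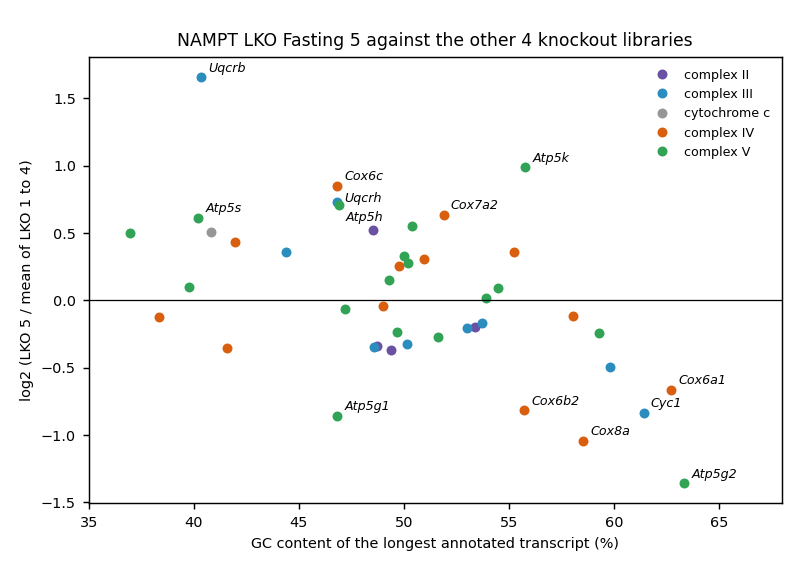
Log2 ratio of NAMPT LKO Fasting 5 to the mean of the other 4 knockout libraries (vertical axis, normalized CPM) against the GC content of the longest annotated transcript in percent, 1 point per member, coloured by complex. Uqcrb, at 40.4% GC, lies highest at 1.66 and Atp5g2, at 63.3% GC, lowest at -1.36.

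WT Fasting 2 and NAMPT LKO Fasting 3 also held a position over many members at once. WT Fasting 2 was the highest of the 10 libraries for 16 of 44 members and the lowest for none, and its median deviation from the member means was 0.17 on the log2 scale. NAMPT LKO Fasting 3 was the lowest for 20 members and the highest for 1, with a median deviation of -0.22. NAMPT LKO Fasting 5 was highest for 16 and lowest for 18. The WT Refed libraries were highest for 0 and 2 members.

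**Figure D3:**
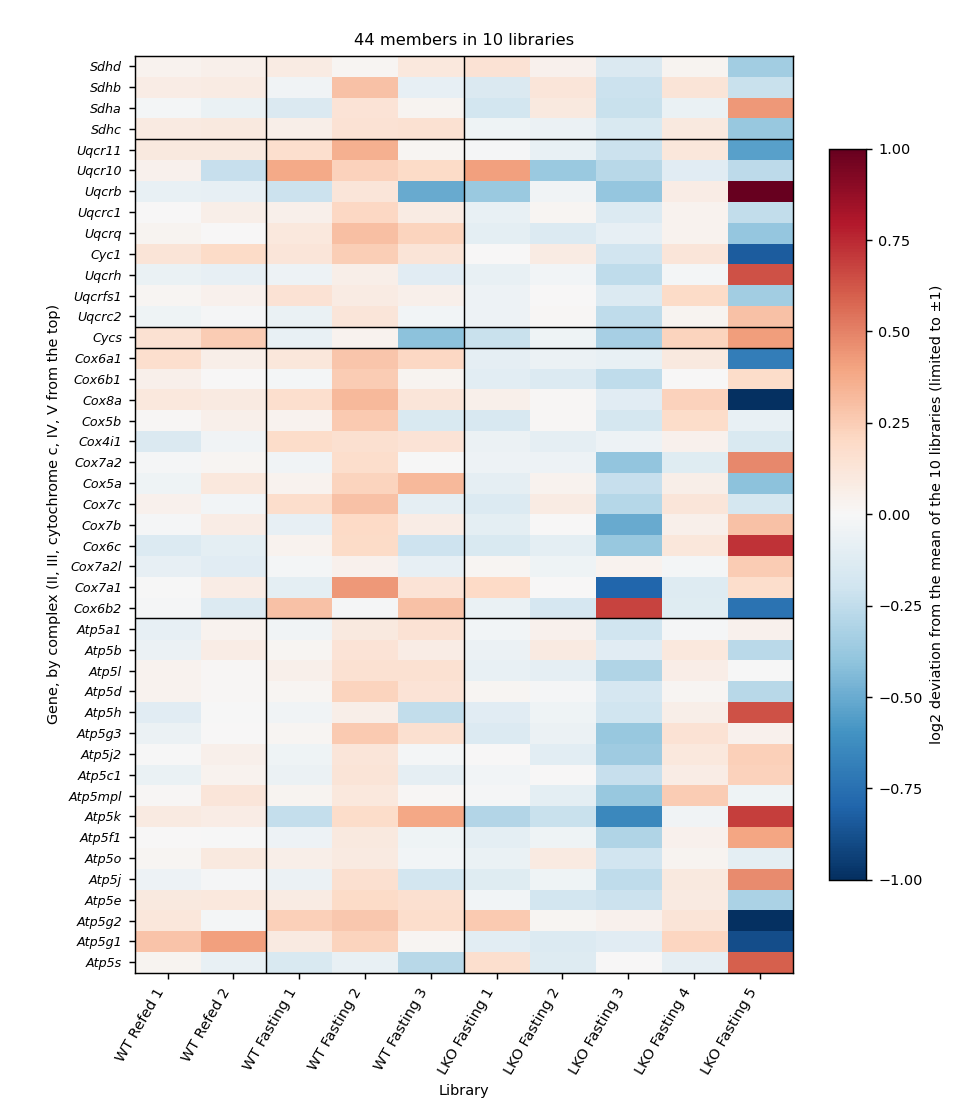
Log2 deviation of each library (columns) from the mean of the 10 libraries for the 44 members (rows, by complex), from normalized CPM and limited to ±1 in colour. The column of NAMPT LKO Fasting 5 holds both the deepest red (Uqcrb) and the deepest blue (Atp5g2, Cox8a), the column of WT Fasting 2 is mostly pale red and that of NAMPT LKO Fasting 3 mostly pale blue.

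The first comparison asked how these genes stood in fasting livers against refed livers with intact Nampt. None of the 44 members passed the test in WT Fasting vs. WT Refed (edgeR quasi-likelihood test, Benjamini-Hochberg adjusted p at or under 0.05), where 7.04% of all 13444 genes did. At an unadjusted p under 0.05 there was 1 member, 2.27%, against 22.3% of all genes, and 0 members without any single WT library or without knockout 2 or 3. DESeq2 and edgeR's exact test called 0 members, where they called 1646 and 1198 of all 13444 genes. Limma's voomWithQualityWeights called 1 member, Cox4i1, where it called 3331 of all 13444 genes. The median log2 fold change of the members was 0.05, with 35 of 44 above 0, and that of all genes 0.04. Under library size alone 20 of 44 were above 0 and the median was -0.01, and without WT Fasting 2 it was 0.01 with 23 of 43 above 0.

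The intervals were narrow enough to bound the change for most of these genes. For 33 of 44 members, or 75.0%, the 95% interval of the fold change lay within 1.5-fold in either direction, against 27.9% of all genes tested, most of which are expressed at lower levels. All 4 complex II genes, 7 of 9 of complex III, 9 of 13 of complex IV and 13 of 17 of complex V were so bounded. Groups did not overlap for 13 of 44 members, or 29.5%, a smaller share than the 49.7% of all genes. The median log2 fold change was 0.03 in complex II, 0.06 in complex III, 0.11 in complex IV and 0.01 in complex V. All 13 complex IV genes that passed the filter had estimates above 0, but 10 of 13 under library size alone and 8 of 12 without WT Fasting 2.

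Cox4i1, a nuclear subunit through which ATP is known to inhibit complex IV, had the lowest p. The gene lies on chromosome 8 at 120668222 to 120674207 (GRCm38, plus strand). Cox4i1 stood at 305 and 328 CPM in WT Refed and at 382, 377 and 370 CPM in WT Fasting. The 3 fasting libraries lay above both refed libraries. The log2 fold change was 0.25 ± 0.11 (SE, edgeR adjusted p = 0.217, 95% interval 0.003 to 0.50). With voomWithQualityWeights it was 0.255 (adjusted p = 0.0254), in a fit that called 3331 of 13444 genes. With the GC trend removed, the log2 fold change of Cox4i1 was 0.19 ± 0.15 (edgeR quasi-likelihood test, unadjusted p = 0.218, adjusted p = 0.446). Of its 50-base stretches 6.65% are shared with other transcripts, chiefly of Emc8, which overlaps it on the other strand.

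Uqcr10, a small complex III subunit, stood at 105 and 86.9 CPM in WT Refed and at 132, 119 and 117 CPM in WT Fasting. Its groups did not overlap, and the log2 fold change was 0.36 ± 0.21 (edgeR adjusted p = 0.352), but 0.22 without WT Refed 2. Uqcrq, the ubiquinone-binding subunit of complex III, had 279 and 274 CPM in WT Refed against 295, 337 and 320 CPM in WT Fasting. Its log2 fold change was 0.20 ± 0.14 (edgeR adjusted p = 0.436). Atp5g3 had 273 and 284 CPM in WT Refed and 288, 341 and 317 CPM in WT Fasting, with a log2 fold change of 0.18 ± 0.16 (edgeR adjusted p = 0.550), but 0.12 without WT Fasting 2.

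Cycs went the other way among the 5 members with the lowest p. Cycs stood at 114 and 123 CPM in WT Refed and at 97.5, 105 and 77.4 CPM in WT Fasting, with every fasting library below both refed ones. The log2 fold change was -0.34 ± 0.21 (edgeR adjusted p = 0.380), and its 95% interval ran from a fold of 0.569 to 1.09. Of the 50-base stretches of Cycs transcripts, 26.1% are shared with other genes, chiefly the processed copy Gm10053.

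The second comparison asked how these genes stood after deletion of Nampt in hepatocytes of fasted mice. Between NAMPT LKO Fasting and WT Fasting, 0 of 44 members were called by edgeR's quasi-likelihood test, and none by its exact test, DESeq2 or voomWithQualityWeights. In this comparison 0.00744% of all genes passed the quasi-likelihood test, which is Nampt alone. The exact test and DESeq2 called 24 of 13444 genes each and voomWithQualityWeights called 1. The members' median log2 fold change was -0.14, with 32 of 44 below 0, against 0.00 and 49.9% below 0 over all genes. As a percent change, the median was -8.98%. At an unadjusted p under 0.05 there were 6 members, or 13.6%, against 6.03% of all genes. All 6 were lower, a direction that 3.31% of all genes showed at that p.

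By complex, 3 of 4 members of complex II, 6 of 9 of complex III, 11 of 13 of complex IV and 12 of 17 of complex V had estimates below 0, and Cycs was above 0. The medians were -0.12, -0.19, -0.21 and -0.10 for complexes II, III, IV and V. Without NAMPT LKO Fasting 5, 40 of 44 members were below 0 and the median was -0.13. Without WT Fasting 2 the median was -0.09, with 27 of 43 below 0, and 1 member kept an unadjusted p under 0.05. Leaving out other libraries gave 2 such members (without knockout 2 or 3), 3 (without WT Fasting 1 or 3), 4 (without either WT Refed library), 6 (without knockout 1) and 9 (without knockout 4 or 5).

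**Figure D4:**
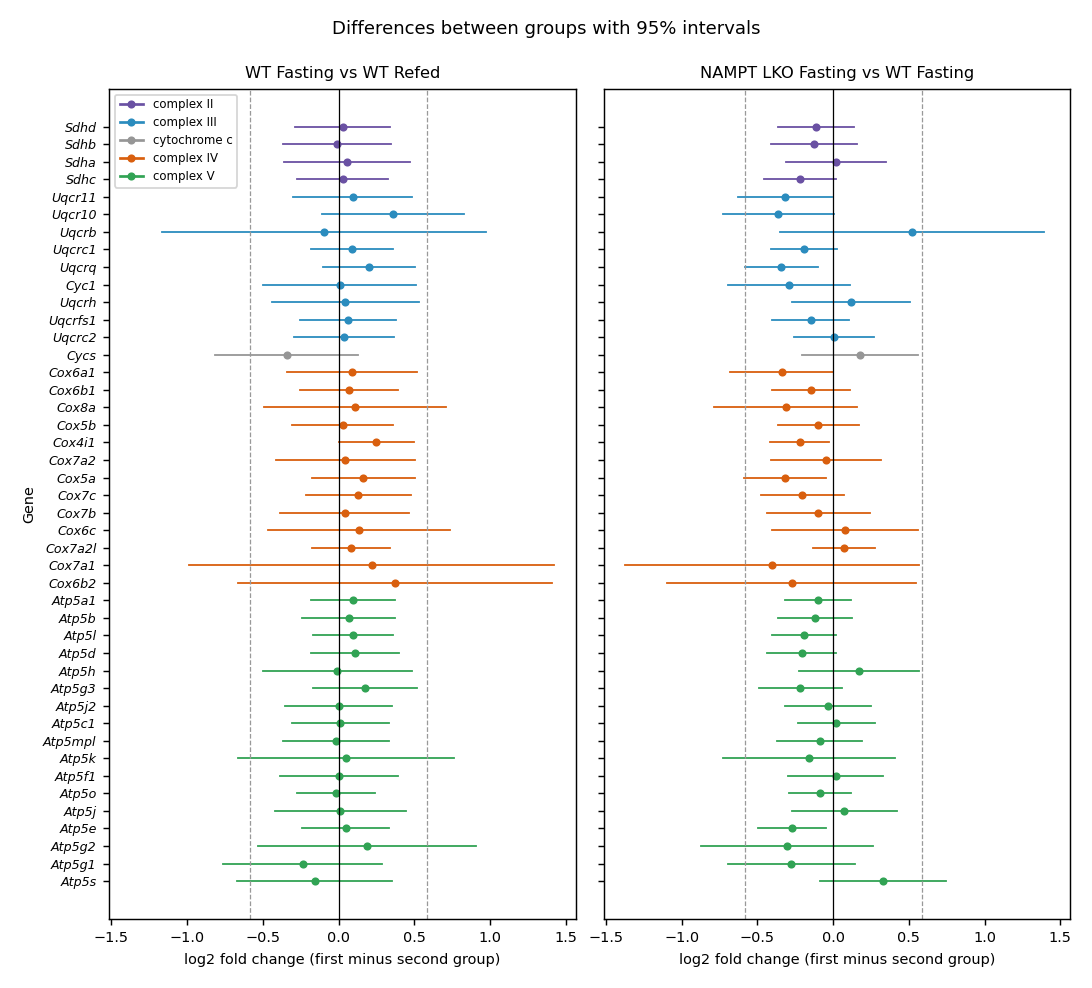
Log2 fold change (points) with 95% interval (lines) of the 44 members in WT Fasting vs. WT Refed (left) and NAMPT LKO Fasting vs. WT Fasting (right), coloured by complex; dashed lines mark 1.5-fold. Estimates crowd around 0 on the left with a median of 0.05, and 32 of 44 lie below 0 on the right, where the interval of Uqcrb is wide.

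Cell type markers moved in part with genotype. The cholangiocyte list (4 of 4 genes, none at 0) summed to 13.8 to 16.7 CPM in NAMPT LKO Fasting and 6.51 to 11.2 CPM in WT Fasting, with no overlap. The pancreas list (7 genes, 1 past the filter, Prss2 and Cpa1 at 0) summed to 4.10 to 5.73 CPM in NAMPT LKO Fasting and 6.99 to 7.27 CPM in WT Fasting, again with no overlap. Of all single genes, 3.99% did not overlap between NAMPT LKO Fasting and WT Fasting. The stellate list (6 of 6) summed to 226 to 289 CPM and 194 to 246 CPM, which overlap. The Kupffer cell and macrophage, endothelial, lymphocyte, blood, adipose, striated muscle and testis lists also overlapped between these groups, and so did the hepatocyte list, at 72114 to 118155 CPM and 83652 to 110705 CPM. Against WT Refed, the WT Fasting sums were higher without overlap for macrophages (219 to 393 CPM against 170 to 213 CPM), endothelium (204 to 223 against 185 to 190), stellate cells (194 to 246 against 189 to 191) and adipose tissue (26.5 to 33.3 against 19.1 to 19.5). The striated muscle sum was lower without overlap (0.192 to 0.279 against 0.438 to 0.717), with 0 of its 6 genes past the filter. Between these 2 groups 49.7% of all single genes did not overlap. The part of these lists in the members' values was not tested. In bulk liver, fewer cells of a type and less RNA per cell cannot be told apart.

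Uqcrq, on chromosome 11 at 53427922 to 53430831 (GRCm38, minus strand), had the lowest p of the members in the knockout comparison. It stood at 256, 249, 259, 281 and 209 CPM in NAMPT LKO Fasting and at 295, 337 and 320 CPM in WT Fasting. The groups did not overlap. The log2 fold change was -0.34 ± 0.11 (SE, n = 5 and 3, edgeR unadjusted p = 0.00950, adjusted p = 0.788), and -0.28 without NAMPT LKO Fasting 5. None of its 50-base stretches is shared with another annotated transcript.

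Atp5e, the epsilon subunit of the ATP synthase stalk, had 63.4, 57.0, 55.8, 68.8 and 51.9 CPM in NAMPT LKO Fasting and 68.6, 74.0 and 72.5 CPM in WT Fasting. Knockout library 4 alone reached the WT Fasting range. Its log2 fold change was -0.27 ± 0.10 (edgeR adjusted p = 0.813), and -0.23 without library 5. Its promoter window held the GABPA and ERR letters. Cox5a, a nuclear subunit on the matrix side of complex IV, had 94.2, 102, 85.2, 104 and 75.1 CPM against 102, 117 and 125 CPM. Its groups overlapped at their edges, and its log2 fold change was -0.32 ± 0.12 (edgeR adjusted p = 0.827) and -0.25 without library 5. Of its 50-base stretches 9.11% are shared with other transcripts, chiefly of Gm26631, which overlaps it on the other strand.

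Cox4i1 had 323, 316, 326, 348 and 303 CPM in NAMPT LKO Fasting, all below the 370 CPM of the lowest WT Fasting library. Its log2 fold change was -0.22 ± 0.09 (edgeR adjusted p = 0.827), which was -0.20 without library 5 and moved to -0.09 when the trend with GC content was removed. Uqcr11, a small complex III subunit whose window held the NRF1 and GABPA letters, had 143, 137, 124, 156 and 98.8 CPM against 162, 184 and 146 CPM in WT Fasting, where knockout library 4 lay within the WT Fasting range. Its log2 fold change was -0.32 ± 0.14 (edgeR adjusted p = 0.827), -0.23 without library 5 and -0.19 with the GC trend removed, where its unadjusted p was 0.100. Cox6a1, the sixth member at that unadjusted p, had 278, 284, 282, 317 and 183 CPM against 320, 358 and 343 CPM. All 5 knockout libraries were below WT Fasting, and the log2 fold change was -0.34 ± 0.15 (edgeR adjusted p = 0.827), -0.23 without library 5 and -0.19 with the GC trend removed, where its unadjusted p was 0.0643. Of the 50-base stretches of Cox6a1 and Uqcr11, 9.16% and 6.27% are shared with other transcripts.

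Groups did not overlap for 6 of 44 members in this comparison, or 13.6%, against 3.99% of all genes. In all 6, namely Uqcrq, Cox4i1, Cox6a1, Cyc1, Uqcrc1 and Atp5d, each knockout library was below each WT Fasting library. They were named after their values were seen, apart from the first 3. Cyc1 had 176, 186, 153, 191 and 98.5 CPM in NAMPT LKO Fasting and 191, 208 and 192 CPM in WT Fasting, which is a gap of under 1 CPM at its narrowest. The 95% interval lay within 1.5-fold for 31 of 44 members, 70.5%, against 53.8% of all genes.

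Some members had estimates above 0 in the knockout. Uqcrb had a log2 fold change of 0.52 ± 0.40 (edgeR adjusted p = 0.844), which was 0.01 without NAMPT LKO Fasting 5. The 2 highest members of complex V by RPKM and Sdha, of which Atp5b and Sdha were chosen after their values were seen, had bounded estimates. Atp5a1 had a log2 fold change of -0.10 ± 0.10 and Atp5b of -0.12 ± 0.11, with 95% intervals from a fold of 0.801 to 1.09 and of 0.777 to 1.09. The estimate of Atp5a1 was -0.06 without WT Fasting 3 or knockout 3, and that of Atp5b -0.07 without knockout 5. Sdha, which is also a tricarboxylic acid cycle enzyme, had a log2 fold change of 0.02 ± 0.15 (fold interval 0.805 to 1.28), and its estimate was -0.05 without WT Fasting 1 and -0.10 without knockout 5.

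**Figure D5:**
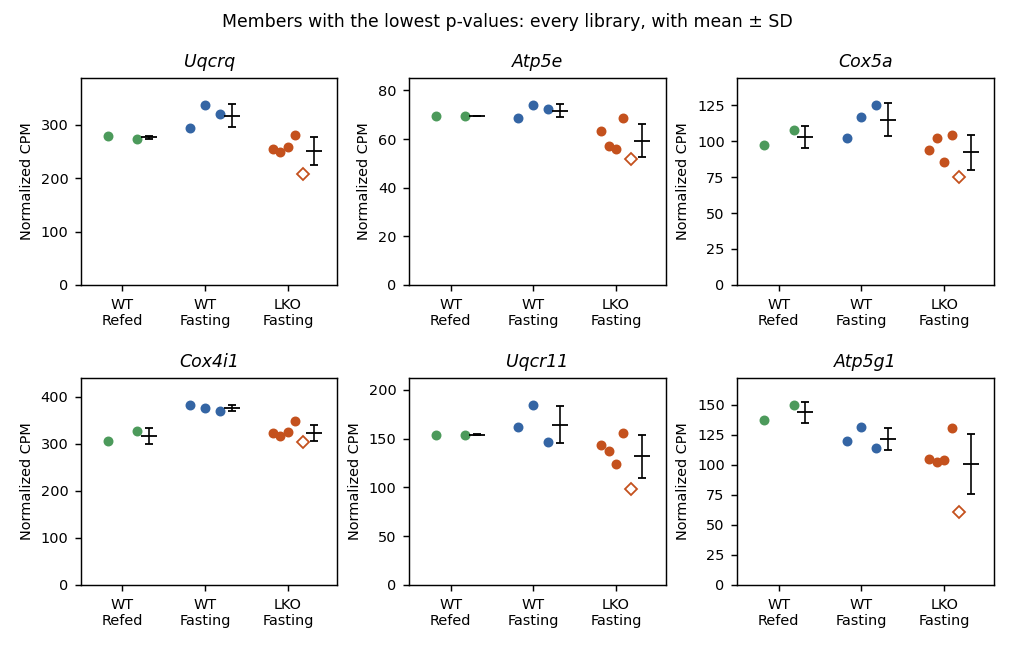
Normalized CPM (vertical axes, from 0) of 6 members in every library: WT Refed (n = 2), WT Fasting (n = 3) and NAMPT LKO Fasting (n = 5), with mean ± SD beside the points and NAMPT LKO Fasting 5 as an open diamond. All knockout points of Uqcrq and Cox4i1 lie below all WT Fasting points, and for Atp5g1 all fasted points lie below both WT Refed points.

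The third comparison set fasted NAMPT LKO livers against refed WT livers, so both genotype and feeding differ and it shares libraries with the other comparisons. Between these groups 0 of 44 members were called by edgeR's quasi-likelihood test, where 11.2% of all genes did. At an unadjusted p under 0.05 there was 1 member, 2.27%, against 26.1% of all genes, with 0 without knockout 2 or either WT Refed library and 2 without knockout 4. The exact test and DESeq2 called 0 members, where they called 1731 and 2242 of all 13444 genes. VoomWithQualityWeights called 1 member, Atp5g1, where it called 4281 of all 13444 genes. The median member log2 fold change was -0.08, with 31 of 44 below 0, and 0.03 over all genes. Groups did not overlap for 9.09% of the members (1 above, 3 below), a smaller share than the 33.5% of all genes.

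Atp5g1 lies on chromosome 11 at 96068852 to 96075670 (GRCm38, minus strand). It stood at 138 and 150 CPM in WT Refed, at 120, 132 and 114 CPM in WT Fasting, and at 105, 103, 104, 131 and 60.7 CPM in NAMPT LKO Fasting. All 8 fasted libraries were below both refed libraries, and knockout library 4 was within the WT Fasting range. Of all genes, 33.5% did not overlap between NAMPT LKO Fasting and WT Refed. The log2 fold change of NAMPT LKO Fasting vs. WT Refed was -0.51 ± 0.21 (edgeR adjusted p = 0.157). Without NAMPT LKO Fasting 5 it was -0.38 with an adjusted p of 0.0390, past the threshold. That fit called 2835 of 13371 genes, against 1510 of 13444 with all 10 libraries. With voomWithQualityWeights the log2 fold change was -0.43 with an adjusted p of 0.0123, where 4281 of 13444 genes were called. In the other comparisons it was -0.24 ± 0.24 (WT Fasting vs. WT Refed) and -0.28 ± 0.19 (NAMPT LKO Fasting vs. WT Fasting), the latter -0.14 without NAMPT LKO Fasting 5.

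The remaining members among the 5 lowest p in this comparison were Atp5e, Sdhc, Cox6a1 and Cox7a2l. Atp5e had 69.4 and 69.5 CPM in WT Refed, above all 5 knockout libraries, and a log2 fold change of -0.23 ± 0.12 (edgeR adjusted p = 0.257). Cox6a1 had a log2 fold change of -0.25, which was -0.14 without NAMPT LKO Fasting 5. Sdhc had 140 and 141 CPM in WT Refed and 128, 126, 118, 141 and 101 CPM in the knockout, with a log2 fold change of -0.19 ± 0.12 (edgeR adjusted p = 0.358). Cox7a2l had 77.2 and 75.9 CPM in WT Refed and 83.1, 79.4, 83.9, 80.9 and 97.9 CPM in the knockout. Its log2 fold change was 0.15 ± 0.11 (edgeR adjusted p = 0.416), but 0.10 without NAMPT LKO Fasting 5, the library at 97.9 CPM.

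The other genes of the pathway were described from lists chosen with earlier results of these data known. Of the 37 complex I subunit genes, 0 were called in any comparison by edgeR, and their medians were 0.04, -0.08 and -0.09 for WT Fasting vs. WT Refed, NAMPT LKO Fasting vs. WT Fasting and NAMPT LKO Fasting vs. WT Refed. In the knockout against WT Fasting, 6 of these 37 had an unadjusted p under 0.05, all lower, where 3.31% of all genes were lower at that p. This count was 12 without NAMPT LKO Fasting 5 and 2 to 7 without any other library, with 2 when WT Fasting 2 or 3 and 3 when knockout 2 or 3 was left out. Without NAMPT LKO Fasting 5, Ndufb10, named after its values were seen, was called lower against WT Refed, where 2835 of 13371 genes were called. Ndufa13 had the lowest p of them, with a log2 fold change of -0.42 ± 0.13 (edgeR adjusted p = 0.761). The 13 protein genes of the mitochondrial genome had medians of -0.20, 0.43 and 0.23, with 0 called and 0 at an unadjusted p under 0.05 in each comparison. Without NAMPT LKO Fasting 5 the median of these 13 genes was 0.05 against WT Fasting, with 9 of 13 above 0, and -0.15 against WT Refed, with 3 of 13 above 0. Without WT Fasting 3 the median was 0.27 against WT Fasting, and -0.05 in WT Fasting vs. WT Refed. The ratio of mt-Cytb to the summed nuclear genes of complex III was 8.77 to 16.5 in 9 libraries and 30.1 in NAMPT LKO Fasting 5. The ratio of mt-Co1, mt-Co2 and mt-Co3 to the nuclear genes of complex IV was 9.43 to 13.8 in those 9 libraries and 20.7 in NAMPT LKO Fasting 5.

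Assembly factors help to install the subunits and their metal centres. Of 30 factors of complexes II to V tested, 1 was called lower in WT Fasting vs. WT Refed, where 4.36% of all genes were, namely Coa3, a complex IV assembly factor, with 39.1 and 41.7 CPM in WT Refed and 25.7, 25.6 and 24.8 CPM in WT Fasting. Its log2 fold change was -0.67 ± 0.14 (edgeR adjusted p = 0.0149), and the adjusted p was over 0.05 without WT Fasting 2 (0.0504) or either WT Refed library (0.0883 and 0.163). Without NAMPT LKO Fasting 5, 8 of the 30 were called, all lower. That fit called 2231 of 13371 genes in either direction, against 946 of 13444 with all 10 libraries. The median of the 30 factors was -0.31, against 0.05 for the 44 subunit genes, and 11 (36.7%) had an unadjusted p under 0.05, all lower, against 11.9% of all genes. Of the 15 regulators, 1 was called higher and 1 lower in WT Fasting vs. WT Refed, where 7.04% of all genes passed in either direction. Sirt1, an NAD-dependent deacetylase, was higher (log2 fold change 0.63 ± 0.15, edgeR adjusted p = 0.0335) and Tfb1m, a methyltransferase of mitochondrial ribosomal RNA, lower (-0.80 ± 0.19, edgeR adjusted p = 0.0272). Neither passed when any single WT library was left out, and Sirt1 also did not without knockout 2 or 3. Neither list had a called gene in NAMPT LKO Fasting vs. WT Fasting by edgeR, where the unadjusted counts were 3 of 30 and 0 of 15, against 6.03% of all genes. In NAMPT LKO Fasting vs. WT Refed, 7 of the 30 factors were called, all lower, where 6.58% of all genes were, and 4 of the 15 regulators, 3 higher and 1 lower, where 11.2% of all genes passed in either direction. Without NAMPT LKO Fasting 5 these counts were 12 and 5, where 2835 of 13371 genes were called. Without WT Refed 1 or 2 they were 0 and 0, where 347 of 13408 and 227 of 13411 genes were called. The count of factors was 1, 1, 2 and 4 without knockout 2, 3, 4 and 1, and 4, 2 and 7 without WT Fasting 1, 2 and 3. These last fits called 989 to 1533 genes.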

How the data were processed

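RNA from 10 mouse livers was sequenced by the authors as single 50-base reads after poly-A selection. The submitters' processing notes name STAR 2.5.1a and featureCounts 1.4.6-p5 with GRCm38, and the paper's methods name other versions. The authors deposited the count of reads on each Ensembl gene, the deposited CPM divides it by the library total, and the deposited RPKM further divides by exonic length. Recomputing both from the counts gave the deposited values. Whether counting used strand is not given in the sources used here, so genes overlapping on opposite strands are uncertain.

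Symbols came from GENCODE M21 (40340 of 41388 genes). The 13444 genes above 1 CPM in 1 or more libraries, other than rRNA genes, were kept. Counts were tested with edgeR 4.0.16 (TMM, quasi-likelihood test, 1 mean per group, all 10 libraries, Benjamini-Hochberg adjustment) in R 4.3.3. Alternatives were limma 3.58.1 voomWithQualityWeights, DESeq2 1.42.0, edgeR's exact test, other scalings and filters, fits of only the groups compared, removal of a loess trend with GC content (span 0.5), a block for replicate number, and leaving out single libraries. Removing the GC trend together with NAMPT LKO Fasting 5 was chosen after seeing the data. Scripts were tested on simulated data. The members, gene lists and marker lists were chosen with earlier results of these data known. Genes were named by a rule: the highest and lowest RPKM of each complex, the 5 lowest p of each comparison, called members, tissue-restricted families, members under the filter, Nampt, and the lowest p of each other list; other genes were named after their values were seen. No replicates differed by less than the sampling noise. P-values set the difference between group means against the spread between mice within groups. In the main fit that spread was estimated over all 10 libraries, so NAMPT LKO Fasting 5 also enters the errors of WT Fasting vs. WT Refed.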

Additional observations from a re-analysis of the deposited data

Results flagged for a closer look

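In the group of 5 NAMPT LKO Fasting libraries, 6 of 44 members, or 13.6%, had 1 library whose gap to the nearest other exceeded 0.71 of the group's range (Dixon's test). This share was near the 13.8% of all 13444 genes, so the members were flagged about as often as other genes. A rate of 1 in 20 would give about 2.2 members. NAMPT LKO Fasting 5 was the library in 5 of the 6: Uqcrb at 402 CPM against 110 to 152 CPM in the others, Uqcrh at 239 against 129 to 151 CPM, Atp5h at 316 against 177 to 212 CPM, Cox7a2l at 97.9 against 79.4 to 83.9 CPM, and Atp5g2 at 17.9 against 43.5 to 51.7 CPM. Uqcr10 stood out in NAMPT LKO Fasting 1, at 135 CPM against 78.7 to 94.3 CPM. The GC contents of these 6 genes ran from 40.4% (Uqcrb) to 63.3% (Atp5g2), and their part in the flags was not tested. The share of 50-base stretches found in other genes was 38.3% for Atp5g2, 25.5% for Uqcrb and 19.9% for Atp5h. It was 13.8% for Cox7a2l, 3.04% for Uqcrh and 0% for Uqcr10, and its part was not tested either.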

How the results depend on the processing

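In NAMPT LKO Fasting vs. WT Fasting the count of called members stayed at 0 under every alternative run. Those fits called few genes of any kind, from 0 of 13231 with the replicate block to 24 of 13444 with DESeq2 or the exact test. With voomWithQualityWeights the count of called members became 1 in WT Fasting vs. WT Refed (Cox4i1), where 3331 of 13444 genes were called. It also became 1 in NAMPT LKO Fasting vs. WT Refed (Atp5g1), where 4281 of 13444 genes were called. In the latter comparison it was 1 too with the GC trend removed and NAMPT LKO Fasting 5 left out (2928 of 13297 genes called). With each library left out in turn, the count in that comparison ranged from 0 to 1. The 1 was Atp5g1 without NAMPT LKO Fasting 5, where 2835 of 13371 genes were called. The cause was not tested. Over the alternatives the median member log2 fold change lay between -0.01 and 0.08 for WT Fasting vs. WT Refed. It lay between -0.18 and -0.09 for the knockout against WT Fasting, and between -0.17 and -0.04 for the knockout against WT Refed. Each shift from the reported median was under 1 SD of the library medians (0.12). That SD is larger in size than the reported medians of 0.05 and -0.08 and close to that of -0.14. The bound would thus pass a change of sign and cannot show that a median is stable. None of the 5 members with the lowest p of each comparison changed direction. The 6 members with an unadjusted p under 0.05 in the knockout against WT Fasting became 14 with voomWithQualityWeights, 9 with DESeq2, 4 under library size alone, 3 with the exact test or only the groups compared, and 1 to 9 with a library left out.

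Same-numbered WT Fasting and NAMPT LKO Fasting libraries had correlations of deviations of 0.10, 0.07 and 0.19, so the numbers were not taken to pair mice. With the replicate block, on libraries 1 to 3 only, 0 members were called, the median was -0.18, 14 members had an unadjusted p under 0.05 (13 without the block), and Nampt was -2.78 with an adjusted p of 0.106. Nampt was -2.87 (adjusted p = 0.269) on libraries 1 to 3 with no replicate block, which use 6 libraries. The 2 WT Refed libraries limit the comparisons with that group.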
